A study of Drosophila melanogaster with 4 samples.

Results

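The regions described here are γH2AvD ChIP-seq regions on the right arm of Drosophila chromosome 3 (3R), outside its pericentric sequence. A region was kept when its midpoint lay more than 1 Mb from the centromeric end of 3R in the dm3 build. This gave 38 of the 297 regions called in wild-type (WT) cells (12.8%). It also gave 236 of the 1563 called after RNAi against the linker histone dH1 (15.1%). Of the 69 regions listed by the direct call between the γH2AvD libraries of both conditions it gave 0. Together they are 274 of the 1929 regions in the 3 deposited lists.

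The samples were S2 cells, an established line of Drosophila embryonic origin. WT cells gave a γH2AvD ChIP library and an input library, and dH1 RNAi cells, which the labels call dH1 depletion, gave another 2, for 4 in all. Per the labels' protocols the dH1 RNAi cells were incubated for 8 days with 100 µg of double-stranded RNA given on days 1, 4 and 7, and the antibody was a rabbit polyclonal. No control double-stranded RNA is given for the WT cells, and no dH1 level was analysed here. With 1 library per group there is no replicate error, and no difference between conditions was tested. Library totals, and therefore depth, are unknown. Intervals are 95% intervals that cover counting error only.

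H2Av is the Drosophila histone variant that combines the roles of H2A.X and H2A.Z. Kinases of the DNA damage response phosphorylate its tail next to DNA breaks, which gives the mark γH2AvD. Linker histone H1 binds DNA where it enters and leaves the nucleosome, compacts chromatin and helps to keep transposons silent. Arm 3R is an autosomal arm that carries both Hox gene complexes and the Hsp70 heat shock genes. S2 cells are known to differ from the fly in copy number along the arms.

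The WT regions of 3R were few and mostly lay singly, and each held more ChIP than input reads. The 38 regions covered 40.2 kb, or 1.41 regions per Mb. Their width ranged from 550 to 1600 bp with a median of 1100 bp. ChIP reads per region ranged from 125 to 815 (median 247) and input reads from 48 to 192 (median 96.5). The ratio of ChIP to input reads, not scaled by depth, ranged from 1.35 to 6.22 with a median of 2.62 (interval of the median 2.01 to 3.12). None of the 38 had fewer ChIP than input reads, against a background of 0% of all WT regions.

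The region at 3R:8537501-8539100 stood above the other WT regions of 3R in ChIP reads, in ratio and in width. It held 815 ChIP reads over 131 of input (ratio 6.22, 5.17 to 7.54) and was the only one of the 38 at the caller's lowest FDR, 0.001. The next 4 by ratio lay together between 4.33 and 4.88, and their intervals overlapped. They were 3R:11067601-11068800 (381 ChIP and 78 input reads), 3R:21320401-21321900 (402 and 88), 3R:27044951-27046150 (364 and 83) and 3R:21877451-21878950 (372 and 86). The next highest ChIP count, 521 over 129 input reads, was at 3R:4174551-4175950, with a ratio of 4.04 (3.32 to 4.94).

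At the low end, 3R:25641451-25642850 held 260 ChIP reads over 192 of input (ratio 1.35, 1.12 to 1.64). It was among the 5 widest regions, at 1400 bp, and its input count was the highest of the 38. The next lowest were 3R:4173401-4174150 (222 ChIP and 147 input reads) and 3R:18200551-18201100 (215 and 142), each with a ratio of 1.51. These 3 regions had the 3 highest input counts of the WT regions on the arm. Over the 38 regions ChIP and input reads were weakly related (Spearman 0.154), while ChIP reads rose with width (Spearman 0.872). The points of these correlations share their libraries, and the sources used here do not say whether a count covers the whole of a region.

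After dH1 RNAi the list held 6.21 times as many regions on 3R (4.4 to 9), and most had about as many ChIP as input reads. That interval treats regions as independent counts. With regions under 10 kb apart joined within each list the number was 4.16 times that of WT, below the interval. The 236 regions covered 250.1 kb, or 8.77 per Mb. Width ranged from 550 to 7050 bp with a median of 850 bp. ChIP reads ranged from 79 to 455 (median 102) and input reads from 57 to 759 (median 94). The ratio ranged from 0.482 to 4.55 with a median of 1.08 (1.05 to 1.12), and 85 of the 236 regions (36.0%, 29.9 to 42.5) had fewer ChIP than input reads. The background over the whole dH1 RNAi list was 59.6%. On arms 2L, 2R, 3L and X beyond the same 1 Mb limit the share was 47.1% to 57.1%. No depth scaling was applied to these counts, and how called regions came to have a ratio below 1 was not tested. With a common minimum ratio of 1.5 the direction of the numbers turned, with 16 dH1 RNAi regions against 37 WT regions. This minimum does not correct for the unknown depths.

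The dH1 RNAi regions of 3R fell into 3 groups by overlap and input. Of the 236, 28 overlapped a WT region, 174 had no WT counterpart and at most 200 input reads, and 34 had no WT counterpart and more than 200 input reads. The limit of 200 was known from earlier results of these data. The 28 overlapping regions had a median ratio of 1.55 (range 0.863 to 4.55), the 174 a median of 1.10 (0.747 to 1.49) and the 34 a median of 0.582 (0.482 to 0.991). The overlapping regions and the 174 overlapped in ratio between 0.863 and 1.49. Their median widths were 1100 bp, 800 bp and 1025 bp.

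**Figure D1:**
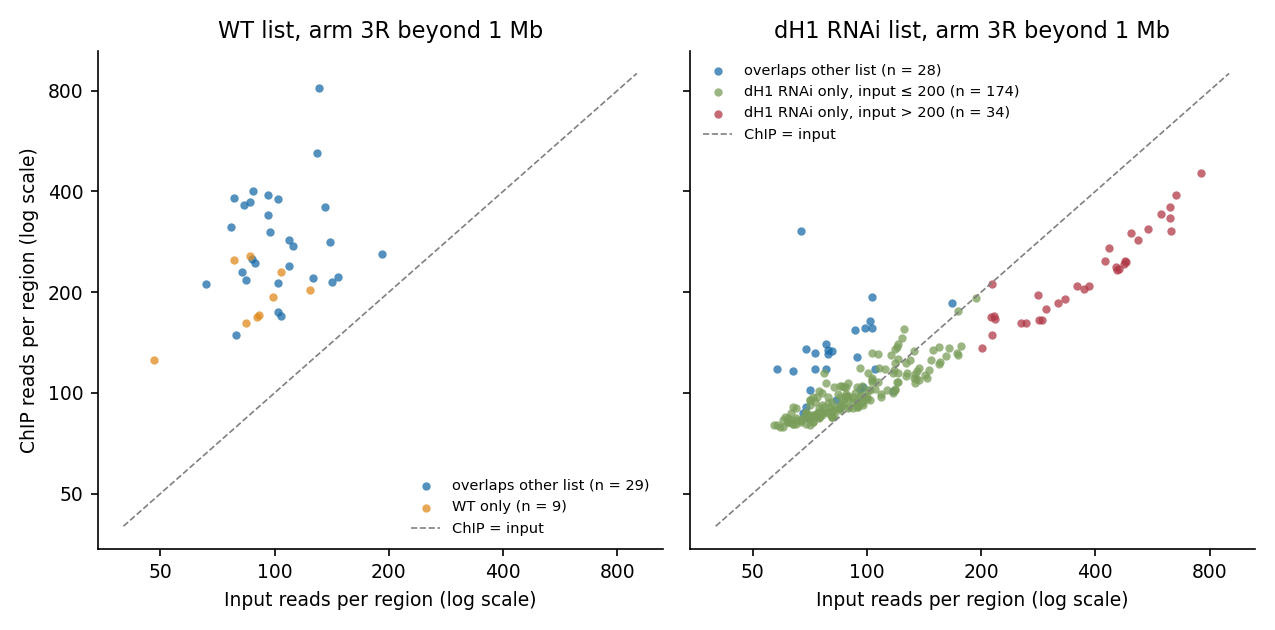
ChIP reads against input reads per region on log axes for the WT list (left) and the dH1 RNAi list (right) on 3R, with the dashed line at equal counts and colours for overlap and input class. The 38 WT points all lie above the line, whereas the 208 dH1 RNAi points without a WT counterpart form a narrow band that crosses it and the 34 with over 200 input reads all lie below.

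Regions without a WT counterpart followed their input closely. Over these 208 regions a straight line with an intercept of 57.5 ChIP reads and a slope of 0.449 ChIP reads per input read had a squared correlation of 0.953. The residual SD was 13.4 reads. Of the 28 regions shared with WT, 24 lay above this line, with a median of 32.1 reads above it, and 3 lay above the highest residual of the 208. The line describes called regions only, and the caller's own threshold on ChIP over input takes part in it. Within the 174 and the 34 regions the Spearman correlation of ChIP with input reads was 0.884 and 0.927.

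The highest dH1 RNAi ratio on 3R was again at the locus that was highest in WT. The region at 3R:8537451-8539100 held 305 ChIP reads over 67 of input (ratio 4.55, 3.48 to 6.02) and was the only one of the 236 at an FDR of 0.001. The next 4 were 3R:27045001-27046050 (118 ChIP and 58 input reads, 2.03), 3R:11798201-11799250 (135 and 69, ratio 1.96), 3R:4173551-4176000 (194 and 103, 1.88) and 3R:14055601-14056650 (116 and 64, 1.81). All 5 overlapped a WT region. At a ratio of at least 1.5, 16 of 16 dH1 RNAi regions on 3R overlapped a WT region (interval 79.4% to 100%), and the background over all sequence at that ratio was 92.4%. Below it, 12 of 220 did (5.45%, 2.85 to 9.33, background 6.49%).

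Among dH1 RNAi regions with no WT counterpart the ratio reached 1.49 (1.11 to 2.02) at 3R:11658251-11659550, with 115 ChIP and 77 input reads. It was followed by 3R:11628401-11629550, with 91 and 64 reads, and 3R:18570651-18571300, with 80 and 57. Next came 3R:2175151-2176450 (85 and 61) and 3R:21881401-21882200 (90 and 65). The intervals of the last 3 include 1. These highest ratios of the 174 regions rested on 80 to 115 ChIP reads, against 305 at the 8537451 locus.

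**Figure D2:**
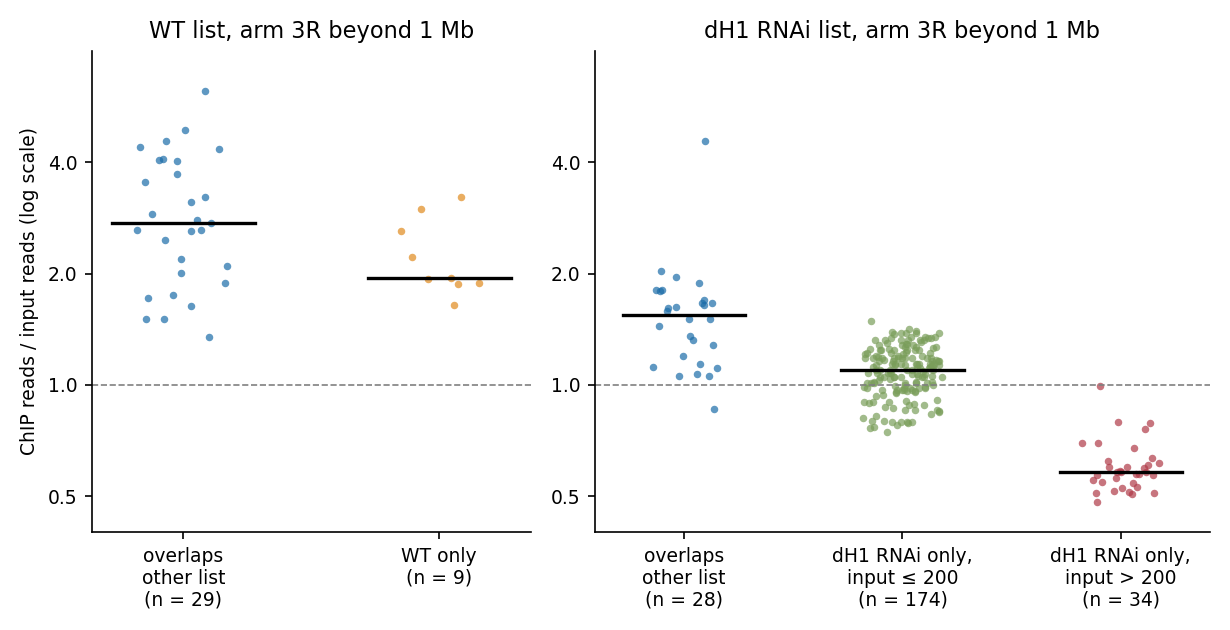
ChIP to input read ratio of each region on a log axis by list and class, with a black line at each median and a dashed line at 1. In the WT list the medians are 2.74 for regions that overlap a dH1 RNAi region and 1.95 for those that do not, and in the dH1 RNAi list they are 1.55, 1.10 and 0.582.

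Most WT regions of 3R had a counterpart after dH1 RNAi. A dH1 RNAi region overlapped 29 of the 38 (76.3%, 59.8 to 88.6), and the background was 72.4% of all 297 WT regions. Conversely 28 of the 236 dH1 RNAi regions overlapped a WT region (11.9%, 8.03 to 16.7), with a background of 13.7%. Both shares lay near the background, with their intervals around it. The dH1 RNAi region at 3R:4173551-4176000 overlapped 2 WT regions, which is why 29 WT regions share 28 counterparts. Beyond the same 1 Mb limit the WT share was 57.6% to 82.8% on the 4 other arms (2L, 2R, 3L and X), so 3R lay within their range.

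The 29 overlapping WT regions had a median of 275 ChIP reads (149 to 815), and the 9 without a counterpart a median of 193 (125 to 256). The groups overlapped between 149 and 256 reads. All 8 WT regions with a ratio of at least 4 had a counterpart (63.1% to 100%, background 93.8%), as did 22 of 26 with a ratio of at least 2 (84.6%, background 74.9%) and 7 of 12 below 2 (58.3%, background 65.9%). The intervals of the last 2 shares overlapped.

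The WT regions without a counterpart were led in ChIP reads by 3R:24424701-24425800, with 256 ChIP reads over 86 of input (ratio 2.98, 2.32 to 3.85). Next was 3R:27877451-27878750, within the last 100 kb of the arm, with 250 and 78 reads, a ratio of 3.21 (2.48 to 4.19). They were followed by 3R:14124251-14125250 (230 and 104), 3R:10549601-10550450 (203 and 124) and 3R:22976401-22977300 (193 and 99). The distance from these 9 regions to the nearest dH1 RNAi region ranged from 3.15 to 571.2 kb, with a median of 52.6 kb. The lists hold no dH1 RNAi counts for these 9 loci, so their level after dH1 RNAi is not shown.

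At the shared loci the summits of both lists lay close together. The pairs were formed by overlap, which by itself limits the distance between their summits. The distance between the summits, which the caller places in steps of 50 bp, had a median of 50 bp over the 29 pairs. It was 0 at 8 pairs, at most 50 bp at 17 (58.6%, 38.9 to 76.5, background 53%) and at most 200 bp at 25. At 3R:8537501-8539100 the summits coincided. The largest distance, 1400 bp, was at 3R:4173401-4174150, where the partner region spans a pair of WT regions and has its summit 50 bp from that of the other, 3R:4174551-4175950. The region at 3R:25641451-25642850 had a distance of 650 bp. The median difference in width, dH1 RNAi minus WT, was 0 bp (-500 to 1700).

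Each shared locus held fewer ChIP reads in the dH1 RNAi library, and most also held fewer input reads. ChIP reads were lower in 29 of 29 pairs, and the background was 100% of the 215 pairs over all sequence. The dH1 RNAi to WT ratio of ChIP reads had a median of 0.436 (0.380 to 0.494) and ranged from 0.254 to 0.874. Input reads were lower in 24 of 29 pairs, with a median ratio of 0.833 (0.701 to 0.948). Over the 215 pairs, which include these 29, the median ChIP ratio was 0.434 (0.42 to 0.441). Their median input ratio was 0.78 (0.754 to 0.809). Both medians lay within the intervals of this arm, so the lower counts were not particular to it. A uniform difference in depth between the libraries is part of both ratios and cannot be told apart from a change in the mark.

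**Figure D3:**
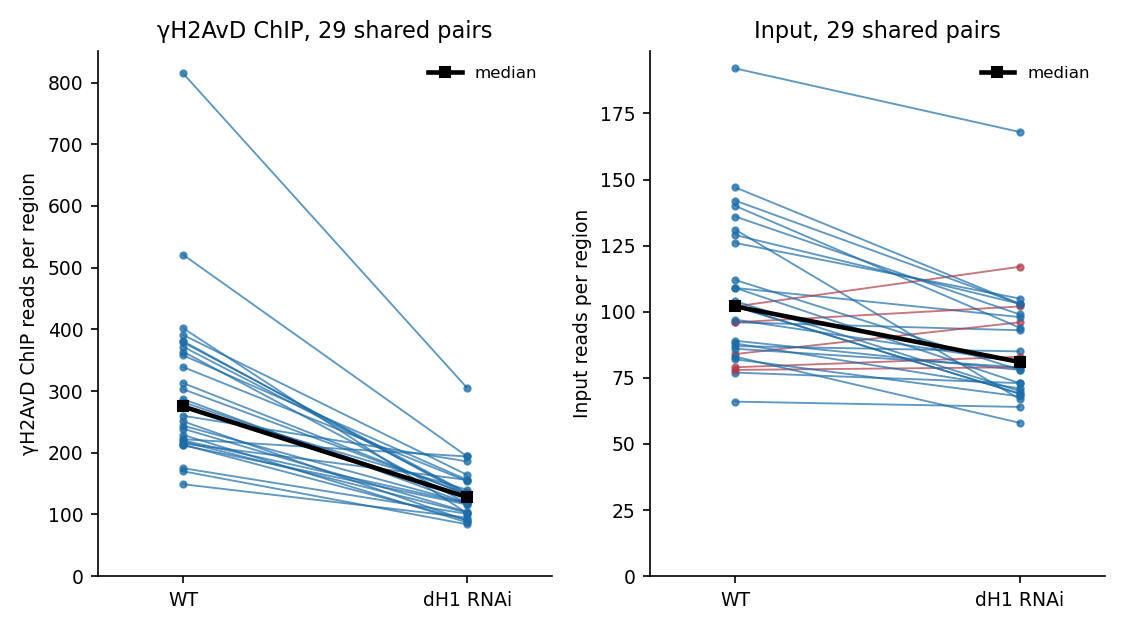
Reads per region at the 29 shared 3R loci, WT against dH1 RNAi, for the ChIP (left) and the input (right), with blue lines where the count is lower after dH1 RNAi, red lines where it is higher and the median in black. All 29 ChIP lines fall, and in the input 24 fall and 5 rise.

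The quotient of the ChIP ratio over the input ratio had a median of 0.527 (0.464 to 0.632) on 3R. Medians on the 4 other arms ran from 0.585 to 0.648, and their intervals overlapped that of 3R. The quotient was below 1 at 27 of 29 pairs (93.1%), and the background was 99.1%, or 213 of 215 pairs. The only pairs of the series not below 1 were therefore on 3R. They were 3R:4173401-4174150, at 1.25 (0.908 to 1.71), and 3R:18200551-18201100, at 1.00 (0.721 to 1.39). Both had a WT ratio of 1.51, among the lowest of the arm, and the first is the region whose partner covers a pair of WT regions. The second was 550 bp wide and had a partner of 1450 bp. Both intervals include 1. Intervals of the quotient are normal intervals on the log scale, and 23 of the 29 lay wholly below 1 (background 80.5%). The unknown depths of all 4 libraries are part of the quotient as well, so a value of 1 does not mark an equal level of γH2AvD.

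The next highest quotients were 0.818 (0.618 to 1.08) at 3R:25641451-25642850, 0.734 (0.492 to 1.10) at 3R:13226901-13227650 and 0.732 (0.530 to 1.01) at 3R:8537501-8539100. At the last locus ChIP reads went from 815 to 305 and input reads from 131 to 67, the lowest input ratio of the 29 pairs, at 0.511. The lowest quotient, 0.314 (0.215 to 0.460), was at 3R:21320401-21321900, where ChIP reads went from 402 to 102 and input reads from 88 to 71. It was followed by 3R:11067601-11068800 at 0.339, 3R:5588451-5589550 at 0.367, 3R:21877451-21878950 at 0.392 and 3R:15686551-15687800 at 0.395. The intervals of these 5 overlapped each other. Over the 29 pairs the quotient fell with the WT ratio (Spearman -0.693). The WT ratio is the denominator of the quotient, so this order partly restates the order of the WT ratios.

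The order of the shared loci was partly kept between the lists. Across the 29 pairs the Spearman correlation of WT and dH1 RNAi ChIP to input ratios was 0.580, that of ChIP reads 0.575 and that of input reads 0.515. The pairs share their libraries, and one dH1 RNAi region enters more than once.

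The 34 regions with more than 200 input reads included the widest and the most heavily read dH1 RNAi regions of 3R. They were 14.4% of the 236 (10.2 to 19.5), and the background was 37.9% of all 1563 dH1 RNAi regions. No WT region of 3R passed 200 input reads (0 of 38; taken as up to 3 counts, a count of 0 allows a share of up to 7.89%, and the exact interval reaches 9.25%), against a WT background of 2.36%. The widest was 3R:26900501-26907550, 7050 bp with 389 ChIP reads over 651 of input (ratio 0.598, 0.526 to 0.679). The region with most reads was 3R:4724151-4729400, 5250 bp with 455 ChIP and 759 input reads. Also wide were 3R:6169001-6172900 (309 ChIP and 552 input reads) and 3R:3559001-3562500 (342 and 597). The 2350 bp region at 3R:22043151-22045500 held 358 and 628 reads.

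The lowest ratios of the arm belonged to the same group. They were 0.482 (0.419 to 0.553) at 3R:3527551-3529100, with 305 ChIP and 633 input reads, 0.506 at 3R:3917801-3918400 and 0.509 at 3R:6635551-6636550. All 34 had fewer ChIP than input reads (89.7% to 100%, background 100% of high-input regions over all sequence), as did 51 of the 202 regions with at most 200 input reads (25.2%, background 34.8%). Input reads both define these groups and are the denominator of the ratio. The highest ratio of the 34 was 0.991 at 3R:19173401-19174900.

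Of the 34 high-input regions, 22 had a region of the same list under 10 kb away (64.7%, 46.5 to 80.3). So did 88 of the 174 low-input regions without a WT counterpart (50.6%, 42.9 to 58.2), and the intervals overlapped. The background over the whole dH1 RNAi list was 53.1%. The 34 fell in 21 separate stretches when regions of the list under 10 kb apart were joined, and 8 of these stretches held 21 of them. Examples are 3R:3555551-3562500, with 3 regions of 479 to 630 input reads, 3R:6024351-6027800, with 3 of 333 to 452, and 3R:22042051-22046700, with 3 of 373 to 628. The first 7 Mb of the arm, a boundary chosen after the values were seen, held 18 of the 34 (52.9%, 35.1 to 70.2). It held 49 of the 174 low-input regions (28.2%, 21.6 to 35.5) and 7 of the 28 shared regions (25%). Of the 38 WT regions it held 10 (26.3%, 13.4 to 43.1). The intervals of the high-input and low-input shares overlapped, and they treat neighbouring regions as independent. A difference in position was not tested. The nearest WT region was 52.6 kb or more away from each of the 34 (median 184.8 kb, 113.2 to 435.6). For the 174 low-input regions the distance began at 2.45 kb, with a median of 138.2 kb (98.6 to 191.8). The intervals of these medians overlapped, and by definition neither group overlaps a WT region. The sources used here do not say how reads that align to several places were counted, so these regions may share reads.

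More dH1 RNAi than WT regions of 3R had a close neighbour. A region of the same list lay under 10 kb away from 124 of the 236 dH1 RNAi regions (52.5%, 46.0 to 59.1, background 53.1%) and from 2 of the 38 WT regions (5.26%, 0.644 to 17.7, background 23.2%). The lists differ in length, which by itself brings neighbours closer. A region and its neighbour are both counted, whereas the intervals of these shares treat regions as independent. The median gap to the next region was 31.3 kb in the dH1 RNAi list and 663.6 kb in the WT list. On the 4 other arms 63.1% to 68.1% of dH1 RNAi regions had such a neighbour.

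**Figure D4:**
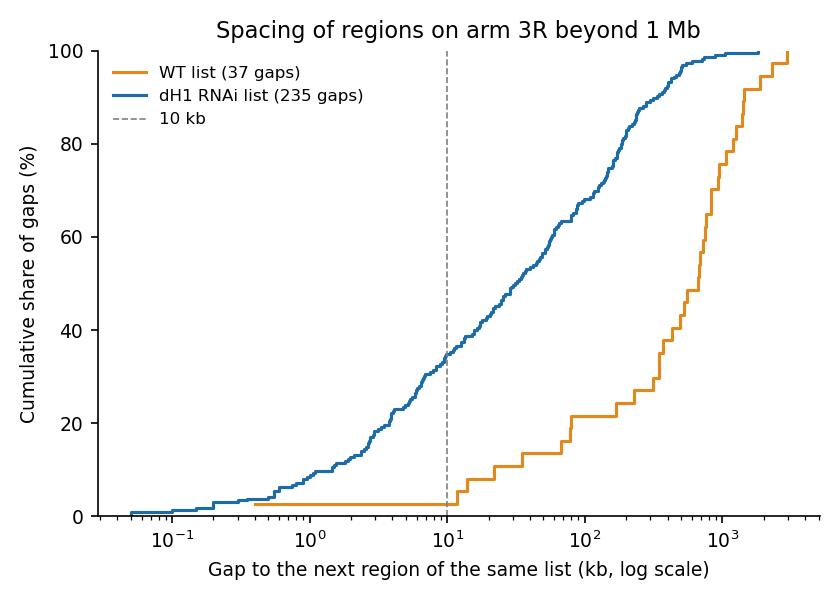
Cumulative share of the gaps between neighbouring regions of the same list on 3R, on a log axis in kb, with a dashed line at 10 kb. The dH1 RNAi gaps have a median of 31.3 kb and the WT gaps one of 663.6 kb, and a single WT gap, of 0.4 kb, is under 10 kb.

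The 236 dH1 RNAi regions formed 154 groups, of which 42 held at least 2 regions and 8 at least 4. The largest, at 3R:24937851-24985650, held 12 regions in 47.8 kb. Its regions were alike in reads, with 103 to 135 ChIP and 94 to 148 input reads and ratios of 0.771 to 1.36. The region with the highest ratio in it, 3R:24948101-24949300 (128 ChIP and 94 input reads), was the only one that overlapped a WT region. That WT region, 3R:24948201-24949300, held 282 ChIP and 140 input reads.

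There were 3 groups of 6 regions, at 3R:4818351-4846550, 3R:19970251-19996200 and 3R:25548651-25575700. None of them included a region shared with WT. Input reads were 75 to 103 in the first, 102 to 155 in the second and 174 to 218 in the third, against a median of 94 over the 236. The third covered 12800 bp with ratios of 0.696 to 1.01, and 4 of its 6 regions passed 200 input reads. Its widest region, 3R:25548651-25552950, was 4300 bp long with 192 ChIP and 194 input reads. A group of 5 lay close by at 3R:25624351-25642900, with 127 to 177 input reads, and its last region was the counterpart of the WT region with the highest input.

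The only WT regions under 10 kb apart were 3R:4173401-4174150 and 3R:4174551-4175950, which are 0.4 kb apart. In the dH1 RNAi list the same sequence was a single region within a group of 4 at 3R:4168151-4189100.

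Counted in bins of 1 Mb from 1 to 28 Mb, dH1 RNAi regions ranged from 0 to 23 a bin (median 8) and WT regions from 0 to 4 (median 1). The bins with most dH1 RNAi regions were 4 to 5 Mb with 23, and 18 to 19 Mb and 25 to 26 Mb with 19 each. The WT bin with most regions was 1 to 2 Mb. Over the 27 bins the WT number was weakly related to the number of dH1 RNAi regions without a WT counterpart (Spearman 0.130).

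Dense bins often also had a higher input. The 6 bins with at least 13 dH1 RNAi regions held 105 of the 236 (44.5%) and 8 of the 38 WT regions. The median input of their regions with at most 200 input reads ran from 77 to 137. In the 19 other bins with a value it ran from 68.5 to 120, with a median of 79. The Spearman correlation of that input with the number of low-input regions found only after dH1 RNAi was 0.332 over 25 bins. The medians of the dense and the other bins overlapped between 77 and 120, so input did not separate them. The part of input in the number of regions was not tested.

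**Figure D5:**
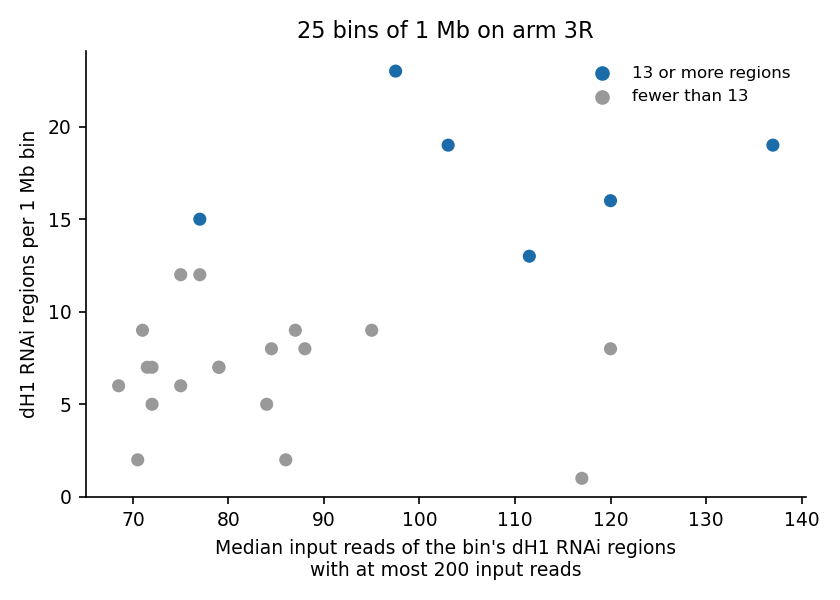
Number of dH1 RNAi regions in each 1 Mb bin of 3R against the median input reads of the bin's regions with at most 200 input reads, with the bins of at least 13 regions in blue. Of the 6 blue bins 5 have a median input above 95 reads, and the bin with most regions, 23, has one of 97.5.

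The longest stretch of the arm without a dH1 RNAi region, 3R:8915051-10720300, ran for 1805.2 kb and began beyond the locus with the highest ratio. It held 2 WT regions, 3R:9486251-9486800, with 125 ChIP and 48 input reads, the lowest counts of the WT list on the arm, and 3R:10549601-10550450. The longest stretch without a WT region, 3R:5589551-8537500, ran for 2947.9 kb up to that locus and held 24 dH1 RNAi regions. The next longest without a WT region were 3R:1432951-3745450, 2312.5 kb with 14 dH1 RNAi regions, and 3R:18201101-20077900, 1876.8 kb with 32.

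Known loci of the arm were examined in approximate windows, and no gene models of dm3 were used, so an overlap with a given gene is not shown. For scale, 3R beyond its 1 Mb limit held 1.41 WT and 8.77 dH1 RNAi regions per Mb. No window was tested against this density. The bithorax complex holds the Hox genes of the posterior thorax and abdomen. Its window of 500 kb held the WT region 3R:12472451-12473300, with 171 ChIP and 91 input reads, which had no dH1 RNAi counterpart. The same window held 3 dH1 RNAi regions. They were 3R:12468651-12469300 (83 ChIP and 67 input reads), 3R:12586551-12588000 (301 and 497) and 3R:12816901-12819000 (132 and 173). The first ended 3.15 kb before the WT region.

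The Antennapedia complex holds the Hox genes of the head and anterior thorax. Its window of 500 kb held no WT region and, at the far edge, 1 dH1 RNAi region, 3R:2892151-2892750, with 81 ChIP and 65 input reads. Each window of the Hsp70 genes, which encode heat-induced chaperones, held 1 dH1 RNAi region and no WT region. At 87A this was 3R:7788901-7789500, with 88 ChIP and 79 input reads, and at 87C 3R:8285301-8286050, with 95 and 71. Counting intervals of the ratios of these 3 regions include 1. The last 100 kb of the arm held the WT region at 27877451 named above and the dH1 RNAi region 3R:27824301-27824850, with 165 ChIP and 284 input reads.

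The direct call of the dH1 RNAi ChIP against the WT ChIP gave no region on 3R, on either side of the 1 Mb limit. This was 0 of 69 listed regions, of which 66 were within the FDR cut-off of 0.1. For the 69, a count of 0, taken as up to 3 counts, allows a share of up to 4.35%. The 4 other arms held 8 directly called regions beyond their limits, between 1 and 3 each. Those 8 overlapped dH1 RNAi regions with 443 to 858 input reads (median 778.5). The same ChIP reads of dH1 RNAi cells entered both calls, so this overlap is not an independent check. On 3R 15 dH1 RNAi regions had at least 443 input reads, the highest being 759. The direct list was made with another read extension, and the counts per arm, 0 to 3, were not tested against each other.

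Close to the 1 Mb limit the nearest regions inside it were 3R:1044451-1045250 in the dH1 RNAi list (99 ChIP and 88 input reads) and 3R:1048551-1049850 in the WT list (339 and 96). The nearest outside it were 3R:832451-833250 (274 and 535) and 3R:638351-639500 (214 and 66), respectively. The other arms had 1.27 to 2.88 WT and 4.25 to 14.9 dH1 RNAi regions per Mb beyond their limits. Their dH1 RNAi lists were 2.76 to 6.80 times as long as their WT lists, and 3R lay within each of these ranges. Median dH1 RNAi ratios were 0.875 to 1.01 on the 4 other arms and 1.08 on 3R, and regions with over 200 input reads made up 9.33% to 45.1% there. These values were not tested against each other.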

How the data were processed

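The dm3 build, FastQC 0.10.1 and Bowtie 0.12.5 are named in the submitters' processing notes. The authors called regions with CCAT in PeakRanger 1.16, per the file headers, with an FDR cut-off of 0.1, a window of 500 bp moved by 50 bp, and at least 4 reads and a fold of 3 per window. Read extension was 200 bp, but 50 bp for the direct list, per the file headers. The headers name alignments with marked duplicates, and whether such reads were counted is not stated. The deposited counts are whole numbers of ChIP and control reads per region, with no scaling. The deposited FDR, a p-value type column, was used as an alternative filter and was quoted for the region with the highest ratio in each list. The nearby gene column was empty, and sequences are not printed because no dm3 genome was used here. Coordinates count from 1.

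Ratios of reads were computed for each region, and overlap meant at least 1 bp. For each WT region the dH1 RNAi region with the largest overlap was its partner. Shares have exact Clopper-Pearson intervals, ratios of counts exact intervals for a pair of Poisson counts, and medians order-statistic intervals. The limit for a count of 0 is 3 counts of the total. PCR reads carry no molecular identifiers here, so intervals cover counting error only. The overlap, interval and grouping steps were tested on simulated data. Named regions were the extremes of ratio, width, reads and quotient and the groups with most regions. Members and rules were chosen with earlier results of these data known. The tools were scipy 1.17.1, pandas 2.3.3, numpy 2.4.6 and matplotlib 3.10.9 under Python 3.11.15. Alternatives varied the 1 Mb limit, FDR, ratio, read and input limits, overlap and grouping distance.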

Additional observations from a re-analysis of the deposited data

How the results depend on the processing

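No paired analysis was possible because there is 1 library per group. Alternatives gave 155 values, of which 130 stayed, 24 moved and 1 reversed. A number moved when it changed by over 1.5 times, and a share or median when it left its 95% interval. The FDR limits of 0.05 and 0.1 removed no region of 3R, and the direct list was empty throughout, so 44 of the 155 values could not move, and 86 of the other 111 stayed. The 1 Mb limit set to 0.5 or 2 Mb and overlap of at least 50% of each region moved no value. The share of directly called regions with a dH1 RNAi counterpart could not be computed, since no such region lay on 3R.

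At a ratio of at least 1.5, 16 dH1 RNAi regions were left, 0.432 times the WT number, so the longer list changed. Of these 100% overlapped WT regions, 45.9% of WT regions overlapped them, and their median ratio was 1.68. At a ratio of at least 1, 151 were left, 3.97 times the WT number, with 17.9% overlap and a median of 1.18. With at least 100 ChIP reads 127 were left, 3.34 times as many, with 18.1% overlap. At or above each list's median ratio, 118 dH1 RNAi and 19 WT regions were left by construction. The WT median width was then 1200 bp, and 31.4% and 0% had a neighbour. Joining regions under 10 kb apart left 154 dH1 RNAi regions, 4.16 times the WT number, 16.9% of them overlapping WT. With at most 200 and 150 input reads the median dH1 RNAi ratio was 1.13 and 1.14. Over 300 input reads were found at 9.32%. At neighbour distances of 1 and 50 kb the dH1 RNAi share was 15.3% and 75.8%, and at 50 kb the WT share was 21.1%. Depth is unknown. Each alternative changes which regions are counted, and beyond that the cause was not tested.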
